A study of Mus musculus with 16 samples.

Results

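The genes of mitochondrial oxidative phosphorylation were followed across the 4 treatment groups of a tumor transcriptome experiment. Members were all genes whose annotated symbol begins with Ndufa, Ndufb, Ndufc, Ndufs, Ndufv, Uqcr, Cox4 to Cox8 or Atp5, together with Sdha, Sdhb, Sdhc and Sdhd. On the array 90 genes met this rule, out of 18193 genes measured. Complex I was represented by 34 subunits and 8 assembly factors, complex II by 4 subunits, complex III by 8, complex IV by 12 subunits and 7 tissue isoforms, and complex V by 17. A further 8 genes, among them Ndufa11 and Ndufs6, are matched only by probe sets shared between several genes and were not included.

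The samples were 16 PDA30364 tumors, 4 per group. PDA30364 is a single tumor line derived from a mouse pancreatic tumor, so all groups share the same tumor background. In every group 500000 cells in PBS/Matrigel were placed under the skin of C57BL/6-Ly5.1 mice 6 to 12 weeks old. The control group received vehicle and control IgG, the anti-CD40 group received vehicle and the CD40 mIgG1 antibody, the GEM group received gemcitabine and control IgG, and the GEM/anti-CD40 group received both agents. Gemcitabine (GEM), a deoxycytidine analog that stops DNA synthesis, at 120 mg/kg, or its vehicle, was injected on days 1, 5 and 12 of treatment. The anti-CD40 Ab, an agonist that stimulates antigen-presenting cells, or its control antibody was given on days 3, 4, 6 and 14. Tumors were taken on day 22 or 23 after inoculation, and 1 animal number is shared by the labels of GEM replicates 3 and 4 although 4 mice per group are stated. Total RNA of whole tumors was measured on a mouse genome expression array, and all levels below are log2 intensities, so a difference of 1 is a 2-fold change.

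Oxidative phosphorylation makes most of the ATP of a resting cell. Complexes I and II pass electrons from NADH and succinate to ubiquinone, complex III passes them to cytochrome c and complex IV to oxygen, and the proton gradient built on the way drives complex V, the ATP synthase. Most subunits are encoded in the nucleus and are expressed in nearly all cell types, while a few subunits of complex IV exist as separate isoforms made in muscle, lung or testis. In tumors the balance between this pathway and glycolysis is a common subject of study, in the tumor cells as well as in the macrophages and T cells among them.

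The muscle isoforms Cox8b, Cox6a2 and Cox7a1 had the largest spread within groups of all members, and the bases upstream of their start sites are shown, where the table held them, beside those of widely expressed counterparts. These are 200 bases before the start, 5′ to 3′ on the gene's strand, from the RefSeq promoter table of GRCm38.p6. Capitals mark the core of the NRF1 motif (GCGC and, after any 2 bases, GCGC again), CCGGAA, the core of ETS sites including those of GABP, CAGCTG, an E-box that MyoD can bind, and TATAAA, each searched on both strands. The marked motifs do not overlap one another in the sequences shown. Cox7a2 lies at chr9:79759854-79760053 on the minus strand, Cox6a1 at chr5:115348959-115349158 on the minus strand, Cox7a1 at chr7:30183971-30184170 on the plus strand and Cox8b at chr7:140900447-140900646 on the minus strand.
Cox6a1, widely expressed: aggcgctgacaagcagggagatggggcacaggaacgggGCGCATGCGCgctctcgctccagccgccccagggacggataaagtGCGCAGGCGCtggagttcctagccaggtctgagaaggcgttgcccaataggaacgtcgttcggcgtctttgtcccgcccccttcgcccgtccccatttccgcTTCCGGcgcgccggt
Cox7a2, widely expressed: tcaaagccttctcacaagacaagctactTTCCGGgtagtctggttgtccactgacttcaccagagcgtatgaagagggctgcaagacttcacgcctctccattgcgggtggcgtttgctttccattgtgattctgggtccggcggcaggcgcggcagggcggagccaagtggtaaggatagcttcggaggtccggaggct
Cox7a1, muscle isoform: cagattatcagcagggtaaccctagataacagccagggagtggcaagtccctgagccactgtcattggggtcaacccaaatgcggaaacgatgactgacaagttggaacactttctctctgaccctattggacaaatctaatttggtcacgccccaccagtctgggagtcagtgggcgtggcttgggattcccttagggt
Cox8b, muscle isoform: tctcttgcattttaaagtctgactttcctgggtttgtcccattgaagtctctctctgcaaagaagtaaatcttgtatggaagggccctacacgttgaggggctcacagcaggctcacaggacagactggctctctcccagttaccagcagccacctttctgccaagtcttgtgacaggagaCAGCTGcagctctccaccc
Cox6a1 held 2 NRF1 cores and 1 ETS core, Cox7a2 held 1 ETS core, Cox8b held 1 E-box and Cox7a1 held none of the 4 motifs. The same stretch of Cox8a, the widely expressed counterpart of Cox8b, also held none of them.

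The promoter table matched 74 of the 90 members with 79 windows of 250 bases. The NRF1 core was present in 19.0% of the member windows and in 4.98% of all 32851 windows of the table. The ETS core was present in 27.8% of member windows against 12.0% of all windows. All windows with either motif belonged to members outside the complex IV tissue isoforms, of which 4 windows could be searched. TATAAA was found in 10.1% of member windows against 12.4% of all windows, and CAGCTG in 7.59% against 13.0%. A match is a run of letters and not a measured binding site.

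No member passed the test at an adjusted p under 0.05 in any of the 5 pairwise comparisons or in the interaction between both agents, by limma with Benjamini-Hochberg adjustment over 45037 probe sets. The smallest adjusted p of a member was 0.807 for anti-CD40 against control, 0.786 for GEM against control, 0.473 for GEM/anti-CD40 against control, 0.278 for GEM/anti-CD40 against GEM, 0.937 for GEM/anti-CD40 against anti-CD40 and 0.89 for the interaction. Over all 18193 genes, GEM/anti-CD40 against control had 5 genes past the threshold, or 0.0275%, and the other comparisons had 0%. At an unadjusted p under 0.05, 5 members stood out in anti-CD40 against control (7.27% of all genes), 1 in GEM against control (6.31% of all genes), 4 in GEM/anti-CD40 against control (11.2% of all genes), 4 in GEM/anti-CD40 against GEM (12.8% of all genes), 2 in GEM/anti-CD40 against anti-CD40 (3.6% of all genes) and 3 in the interaction (5.12% of all genes). As shares of the 90 members these were 5.56%, 1.11%, 4.44%, 4.44%, 2.22% and 3.33%, each below the share of all genes. Of all probe sets 6.08%, 5.72%, 9.58%, 11.6%, 4.6% and 5.24% reached that threshold, each above the member share. The alternatives were set against all probe sets, or all genes where probe sets were averaged. For anti-CD40 against control, which share was the higher depended on the fit. It was 13.3% of members against 7.04% of all probe sets without control replicate 1. With all 16 arrays in 1 fit it was 12.2% against 7.38%, and with a trended and robust prior 10.0% against 5.88%. The member share was the higher in 7 of 18 alternatives. Among these the gap was small with array weights, 6.67% against 6.54%, and without the 3 arrays rich in muscle or skin genes, 6.67% against 6.51%. The member share was also the higher in 1 of 18 for GEM/anti-CD40 against control, in 4 of 18 for GEM/anti-CD40 against anti-CD40 and in 3 of 26 for the interaction.

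In anti-CD40 against control, the 95% intervals of all 90 members lay within a 1.5-fold change in either direction, which is 0.585 on the log2 scale, and those of 57 members lay within 1.2-fold. In GEM against control 89 members lay within 1.5-fold and 73 within 1.2-fold. In GEM/anti-CD40 against control the numbers were 87 and 66, against GEM 85 and 71, and against anti-CD40 87 and 69. The interaction was the least precise, with 85 members within 1.5-fold and 44 within 1.2-fold. The 3 members outside 1.5-fold in GEM/anti-CD40 against control were the muscle isoforms Cox6a2, Cox7a1 and Cox8b. In GEM against control the 1 member was Cox7c, whose probe set had a low mean of 6.94 over the 16 arrays. The members also varied less among tumors of 1 group than genes in general, with a median within-group SD of 0.077 against 0.127 over all genes. Complex V had the smallest median SD of the complexes at 0.058, and the tissue isoforms the largest at 0.245.

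**Figure D1:**
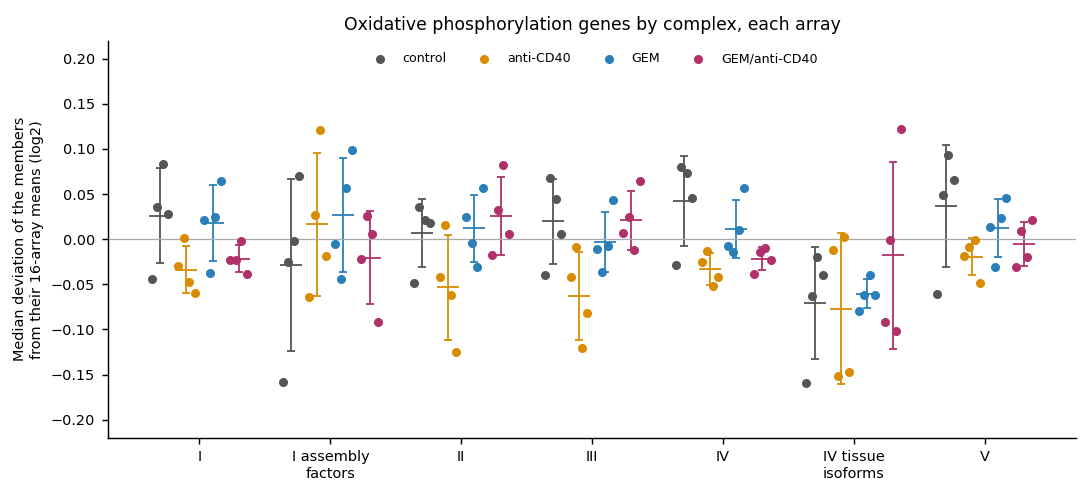
Median deviation of the members of each complex from their own means over 16 arrays (log2, y axis), 1 point per array, for control, anti-CD40, GEM and GEM/anti-CD40 tumors, with group mean and SD. Every pair of groups overlaps in each complex, and control replicate 1 lies below the other 3 controls in complexes I to V.

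From array to array, the pathway as a whole stayed between -0.055 and 0.055 on the log2 scale. The median deviation of all 90 members from their 16-array means was -0.048, 0.046, 0.055 and 0.031 in the 4 control tumors, and -0.028, -0.0097, -0.042 and -0.055 in the 4 anti-CD40 tumors. It was 0.012, -0.038, 0.014 and 0.055 in the GEM tumors, and -0.030, 0.0028, -0.0091 and -0.0081 in the GEM/anti-CD40 tumors. All 4 anti-CD40 tumors lay below 0, as did control replicate 1, so the groups overlapped. Control replicate 3 held the single highest value of the 16 arrays for 22 of the 90 members, or 24.4%, against 9.39% of all genes. Anti-CD40 replicate 3 held the lowest value for 22 members, also 24.4%, against 12.2% of all genes. Control replicate 1 held the lowest value for 11 members and the highest for none.

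By direction, 75 of 90 members had a log2 change below 0 in anti-CD40 against control, or 83.3%, while 55.7% of all genes did. The median change of the members was -0.046 and that of all genes -0.018. All 4 complex II subunits and all 8 complex III subunits lay below 0, with medians of -0.0575 and -0.064, as did 30 of the 34 complex I subunits with a median of -0.054 and 15 of the 17 complex V subunits with a median of -0.0575. The complex I assembly factors were placed otherwise, with 5 of 8 above 0 and a median of 0.028. The members were measured in the same 8 tumors, so these counts are not independent observations and carry no test. Over 18 alternatives the members below 0 numbered from 68, without control replicate 4, to 79, with arrays scaled to their 75th percentile. Of the 51 members with several probe sets, 38 had the same sign in all of them. Without control replicate 1 the members below 0 numbered 77. Those at an unadjusted p under 0.05 by limma then numbered 12 instead of 5, or 13.3% against 7.04% of all probe sets. Without anti-CD40 replicate 3 or 4 that number was 1, or 1.11% against 4.63% and 5.18% of all probe sets. All tumor RNA was measured in bulk, so fewer cells of a type and less RNA per cell cannot be told apart.

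In GEM against control the members were spread around 0, with 36 above and 52 below, a median of -0.0075 and a median over all genes of -0.0025. The direction of that median rested on single tumors, since it was 0.0092 without control replicate 3 and 0.010 without GEM replicate 2. It also moved with the scaling of the arrays. Scaled to their 75th percentile, 19 members were above 0 and 71 below, with a median of -0.035. The median of all probe sets was then -0.03. All 8 complex I assembly factors were above 0, with a median of 0.0475. Complex III had the lowest median at -0.044.

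In GEM/anti-CD40 against control 63 members lay below 0 and 26 above, with a median of -0.041 against -0.015 over all genes. Complex IV contributed 12 of 12 below 0 with a median of -0.055, and complex I 26 of 34 with a median of -0.06. Complexes II and III were centred near 0, at -0.0025 and 0.0038. In GEM/anti-CD40 against GEM 55 members were below 0 with a median of -0.016, close to the median of all genes at -0.018. In GEM/anti-CD40 against anti-CD40 58 members were above 0 and 30 below, with a median of 0.0225 and a median of all genes of 0.005. The interaction, which asks whether the change with anti-CD40 Ab differed with and without GEM, had a median of 0.035 over the members and 0.0075 over all genes. All 8 complex III subunits were above 0 at a median of 0.1125. With a gene's mean over its probe sets that complex III median was 0.042. These comparisons share groups, so their signs are tied to each other.

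**Figure D2:**
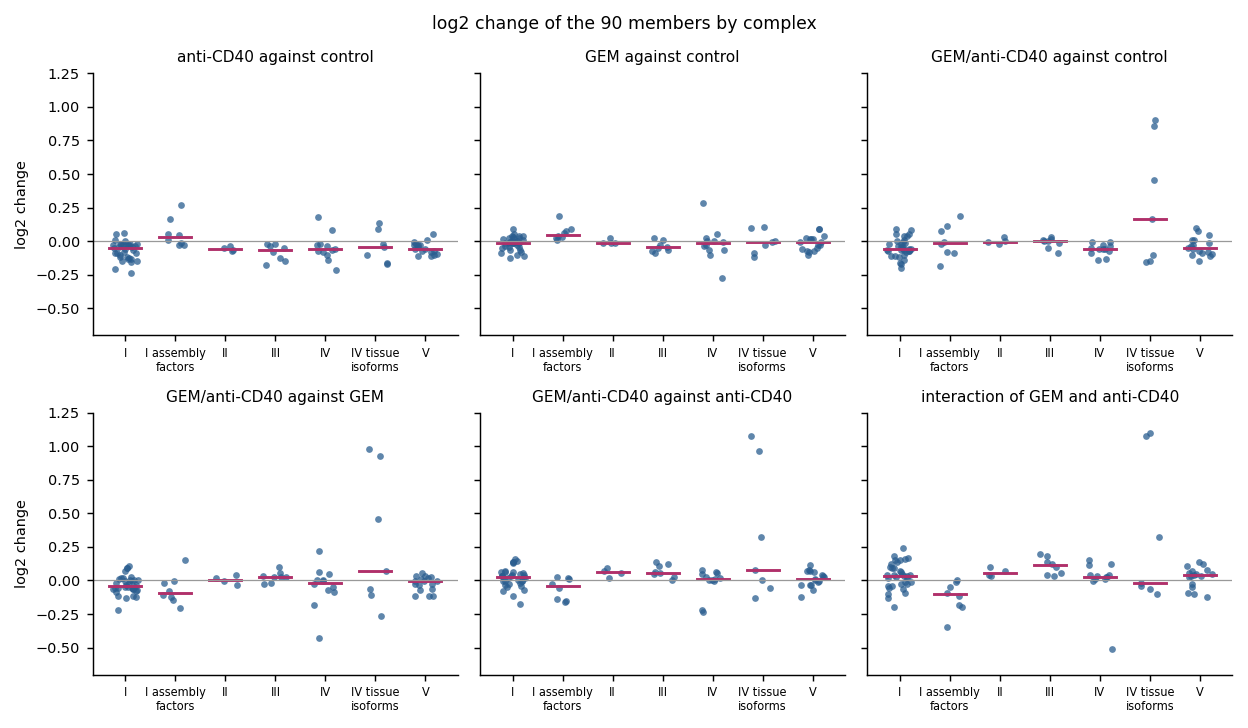
The log2 change of each of the 90 members (points, y axis) by complex (x axis) in the 5 pairwise comparisons and the interaction, with the median of each complex as a bar. Nearly all points lie near 0, and the points near 1 in the GEM/anti-CD40 panels are Cox6a2 and Cox8b.

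Among the core subunits, Ndufs1 and Ndufv1 belong to the electron-accepting arm of complex I, Sdha and Sdhb are the flavoprotein and iron-sulfur subunits of complex II, Uqcrc1 and Uqcrfs1 are a core protein and the Rieske protein of complex III, Cox4i1 and Cox5a are nuclear subunits of complex IV, and Atp5a1 and Atp5b are the alpha and beta subunits that make ATP. Across all 6 comparisons their log2 changes ranged from -0.09 for Ndufv1 in anti-CD40 against control to 0.11 for Uqcrc1 in GEM/anti-CD40 against anti-CD40. This range holds for the representing probe sets. With a gene's mean over its probe sets, the interaction of Atp5a1 was -0.15. Another Atp5a1 probe set gave 0.1375 in anti-CD40 against control. Sdha ranged over the 16 tumors from 10.84 to 11.14, and Cox4i1 from 12.82 to 13.0. Atp5b was measured at 12.52, 12.5, 12.57 and 12.53 in control and at 12.6, 12.6, 12.63 and 12.58 in GEM/anti-CD40 tumors. These 4 values all lay above the 4 control values, but the difference of 0.073 (SE 0.051) had an adjusted p of 0.667 by limma.

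**Figure D3:**
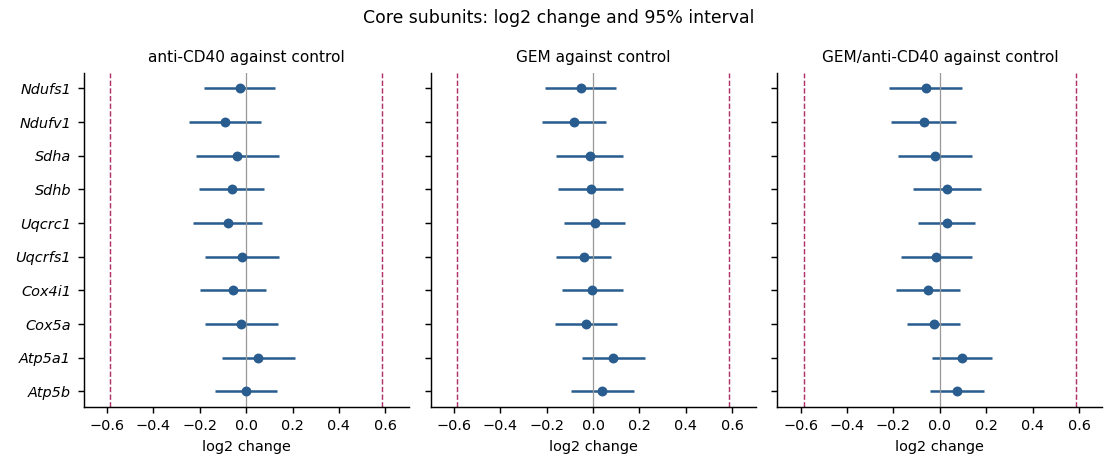
The log2 change (point) and its 95% limma interval (line) of 10 core subunits in the 3 comparisons with control, on the x axis, with dashed lines at a 1.5-fold change. All intervals cross 0 and stay inside the dashed lines.

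Among complex I subunits, the members at an unadjusted p under 0.05 in at least 1 comparison were Ndufb11, Ndufa1 and Ndufa3, small accessory subunits of the membrane arm, and Ndufs7 and Ndufs8, core subunits that carry the iron-sulfur clusters nearest to ubiquinone. Ndufb11 was measured at 12.16, 12.22, 12.32 and 12.11 in control, at 12.01, 12.16, 11.71 and 11.98 in anti-CD40, at 12.15, 12.02, 12.11 and 12.19 in GEM and at 11.99, 12.0, 12.13 and 12.01 in GEM/anti-CD40 tumors. The change was -0.24 (SE 0.099, adjusted p 0.807 by limma) for anti-CD40 and -0.17 (SE 0.067, adjusted p 0.497) for GEM/anti-CD40 against control. The lowest value belonged to anti-CD40 replicate 3, and both pairs of groups overlapped. All 3 probe sets of Ndufb11 gave changes between -0.26 and -0.23 in anti-CD40 against control.

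Ndufa1 was measured at 12.3, 12.34, 12.33 and 12.15 in control and at 12.15, 12.09, 12.15 and 12.07 in GEM/anti-CD40 tumors, a change of -0.17 (SE 0.063, adjusted p 0.49 by limma). The anti-CD40 tumors gave 12.07, 12.27, 11.86 and 12.1 and overlapped both. Ndufs7 was measured at 10.65, 10.62, 10.74 and 10.59 in control and at 10.53, 10.51, 10.41 and 10.54 in anti-CD40 tumors, without overlap. The change was -0.15 (SE 0.064, adjusted p 0.807 by limma). The GEM/anti-CD40 tumors, at 10.6, 10.57, 10.65 and 10.73, lay above all anti-CD40 tumors, and the interaction was 0.18 (SE 0.078, adjusted p 0.89 by limma).

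Ndufs8 had the smallest p of the interaction. Its values were 11.96, 12.11, 12.16 and 12.19 in control, 11.98, 11.96, 11.86 and 12.02 in anti-CD40, 12.03, 12.04, 11.97 and 11.93 in GEM and 12.08, 12.15, 11.96 and 12.16 in GEM/anti-CD40 tumors. Against control, the mean differed by -0.15 with anti-CD40, by -0.11 with GEM and by -0.0175 with the combination, and the interaction was 0.245 (SE 0.091, adjusted p 0.89 by limma). Its 6 probe sets gave interactions from 0.055 to 0.275. Ndufa3 was measured at 11.42, 11.45, 11.42 and 11.49 in anti-CD40 and at 11.6, 11.56, 11.52 and 11.74 in GEM/anti-CD40 tumors, without overlap, a difference of 0.16 (SE 0.066, adjusted p 0.937 by limma). The highest Ndufa3 value was that of GEM/anti-CD40 replicate 4.

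The complex I assembly factors help to build the complex and are not part of it. Ndufaf3, which acts early in assembly together with Ndufaf4, was measured at 7.22, 7.42, 7.41 and 7.31 in control, at 7.54, 7.46, 7.53 and 7.49 in anti-CD40, at 7.41, 7.32, 7.31 and 7.45 in GEM and at 7.64, 7.48, 7.53 and 7.45 in GEM/anti-CD40 tumors. All anti-CD40 and all GEM/anti-CD40 tumors lay above all control tumors. The differences were 0.165 (SE 0.067, adjusted p 0.807 by limma) and 0.185 (SE 0.071, adjusted p 0.491). These comparisons use the same 4 control tumors. Ndufaf4 was measured at 8.99, 9.38, 9.31 and 8.96 in control and at 9.18, 9.5, 9.54 and 9.5 in anti-CD40 tumors, with overlap and a difference of 0.27 (SE 0.122, adjusted p 0.807 by limma). The GEM tumors gave 9.53, 8.96, 9.44 and 9.47, with replicate 2 apart from the others.

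In complex IV, Ndufa4 encodes a subunit first assigned to complex I, and Ndufa4l2 its paralog, which is known to be induced by hypoxia. Ndufa4 was measured at 12.14, 12.33, 12.41 and 12.29 in control, at 12.05, 12.16, 12.12 and 11.98 in anti-CD40, at 12.39, 12.25, 12.38 and 12.35 in GEM and at 12.05, 12.2, 12.13 and 12.25 in GEM/anti-CD40 tumors. The values of the groups that received anti-CD40 Ab lay lower, with changes of -0.215 (SE 0.077, adjusted p 0.807 by limma) for anti-CD40 against control and -0.185 (SE 0.065, adjusted p 0.335) for GEM/anti-CD40 against GEM. Only the lowest control tumor reached into the anti-CD40 range. Ndufa4l2 was measured at 6.79, 6.86, 6.75 and 6.65 in control, at 7.01, 6.67, 6.82 and 7.28 in anti-CD40, at 6.48, 6.44, 6.37 and 6.66 in GEM and at 6.81, 6.8, 6.62 and 6.6 in GEM/anti-CD40 tumors. It had the smallest p of GEM against control, with a change of -0.275 (SE 0.078, adjusted p 0.786 by limma), and 3 of the 4 GEM tumors lay below all other 13 tumors. For GEM/anti-CD40 against GEM the difference was 0.22 (SE 0.083, adjusted p 0.365 by limma).

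Cox6b1, a subunit on the cytochrome c side of complex IV, was measured at 12.34, 12.46, 12.46 and 12.38 in control and at 12.29, 12.29, 12.2 and 12.29 in anti-CD40 tumors. The groups did not overlap, and the change was -0.14 (SE 0.061, adjusted p 0.807 by limma). Cox7c, a small subunit of complex IV, was measured at 7.28, 6.6, 6.47 and 7.19 in control, at 6.94, 7.07, 7.0 and 6.85 in anti-CD40, at 6.86, 7.13, 7.4 and 7.3 in GEM and at 6.78, 6.56, 6.95 and 6.68 in GEM/anti-CD40 tumors. The probe set that represents Cox7c had a mean of 6.94 over the 16 arrays. Apart from Ndufa4l2 at 6.73, the other complex IV subunits had means from 11.97 for Cox7a2l to 13.55 for Cox6a1. How well this probe set reports the transcript was not tested. For Cox7c the control tumors formed a high and a low pair. GEM/anti-CD40 against GEM gave -0.43 (SE 0.126, adjusted p 0.278 by limma), the smallest adjusted p of any member in the 6 comparisons, and the other probe set of the gene gave -0.49. The interaction was -0.51 (SE 0.233, adjusted p 0.89 by limma).

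Complex V was the most even of the complexes. Atp5pb, which encodes subunit b of the stalk that holds the ATP synthase still, was measured at 12.77, 12.81, 12.73 and 12.8 in control and at 12.6, 12.65, 12.64 and 12.63 in GEM/anti-CD40 tumors, without overlap. The change was -0.15 (SE 0.052, adjusted p 0.473 by limma), the smallest adjusted p of a member against control. The other probe set of the gene gave -0.09. In GEM/anti-CD40 against anti-CD40 that other probe set gave 0.0175, while the representing probe set was below 0. Groups that did not overlap were found for 3 members in anti-CD40 against control (3.41% of all genes), for 0 in GEM against control (3.67% of all genes), where 1 member had an unadjusted limma p under 0.05, for 5 in GEM/anti-CD40 against control (5.99% of all genes), for 2 in GEM/anti-CD40 against GEM (7.15% of all genes) and for 3 in GEM/anti-CD40 against anti-CD40 (2.26% of all genes). As shares of the 90 members these are 3.33%, 0%, 5.56%, 2.22% and 3.33%.

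**Figure D4:**
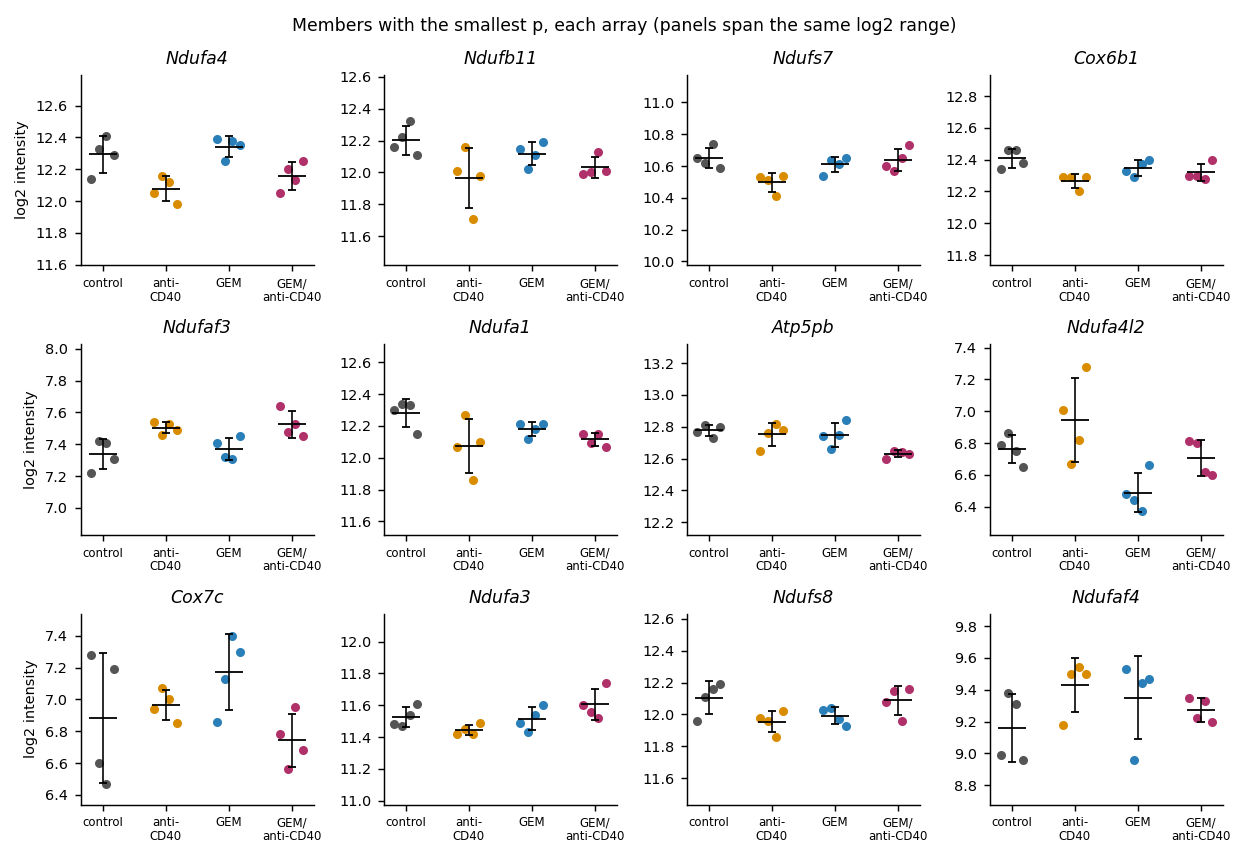
The log2 intensity (y axis) of 12 members in each tumor, by group, with mean and SD of 4 tumors as black bars, every panel spanning the same log2 range. Ndufaf3 lies higher in both groups given anti-CD40 Ab, and the control tumors of Cox7c split into a high and a low pair. The probe set of Atp5pb shown lies lower in the combination group.

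The tissue isoforms of complex IV gave the largest differences of all members, and these came from a single tumor. Cox6a2, the heart and skeletal muscle isoform of subunit 6a, was measured at 9.91 in GEM/anti-CD40 replicate 4 and between 5.82 and 6.39 in the other 15 tumors. Cox8b, the muscle isoform of subunit 8, was at 8.83 there and between 4.45 and 4.97 elsewhere. Cox7a1, the muscle isoform of subunit 7a, was at 6.96 there and between 5.06 and 5.91 elsewhere. These values lay 3.796, 4.05 and 1.397 above the mean of the other 15 tumors on the log2 scale. By its mean over the 16 arrays Cox8b lies below the median probe set, so no fold is given.

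The widely expressed counterparts did not stand out in that tumor. Cox6a1 was at 13.52 there within a range of 13.46 to 13.63, Cox8a at 12.35 within 12.24 to 12.59 and Cox7a2 at 12.74 within 12.63 to 12.77. Outside the muscle isoforms, the members' differences from their means over the other 15 tumors ran from -0.341, for the testis isoform Cox6b2, to 0.234, for Ndufs5. In all, 7 of the 90 members had their highest value in that tumor, or 7.78%, against 6.68% of all genes.

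All 14 skeletal muscle markers had their highest value in the same tumor, with a mean log2 intensity of 12.0 against 4.91 to 7.71 in the other 15. Creatine kinase Ckm was at 13.13 there and at most 7.95 elsewhere, and the myosin Myh4 was at 12.32 and at most 6.8 elsewhere. Ucp1, which defines brown fat, was at 3.59 there and between 3.36 and 3.73 elsewhere. The tumors with the next highest muscle markers, GEM replicate 4 and control replicate 4, had Cox6a2 at 6.29 and 6.39 and Cox8b at 4.91 and 4.87. With all tumors, GEM/anti-CD40 against control gave 0.86 (SE 0.794) for Cox6a2, 0.905 (SE 0.849) for Cox8b and 0.45 (SE 0.322) for Cox7a1, with adjusted p of 0.747, 0.751 and 0.669 by limma. Without GEM/anti-CD40 replicate 4 the values were -0.093, -0.12 and 0.12, with adjusted p of 0.901, 0.852 and 0.907.

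The isoforms of other tissues had no tumor as far from the rest. The lung isoform Cox4i2 ranged from 4.64 to 5.1, the testis isoforms Cox6b2 from 4.27 to 5.09, Cox7b2 from 2.7 to 3.13 and Cox8c from 7.68 to 8.05. The groups overlapped for each of them in every pairwise comparison. Cox6b2 had a within-group SD of 0.245, the fifth highest of the members, and Cox4i2, Cox6b2 and Cox7b2 lie below the median probe set.

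**Figure D5:**
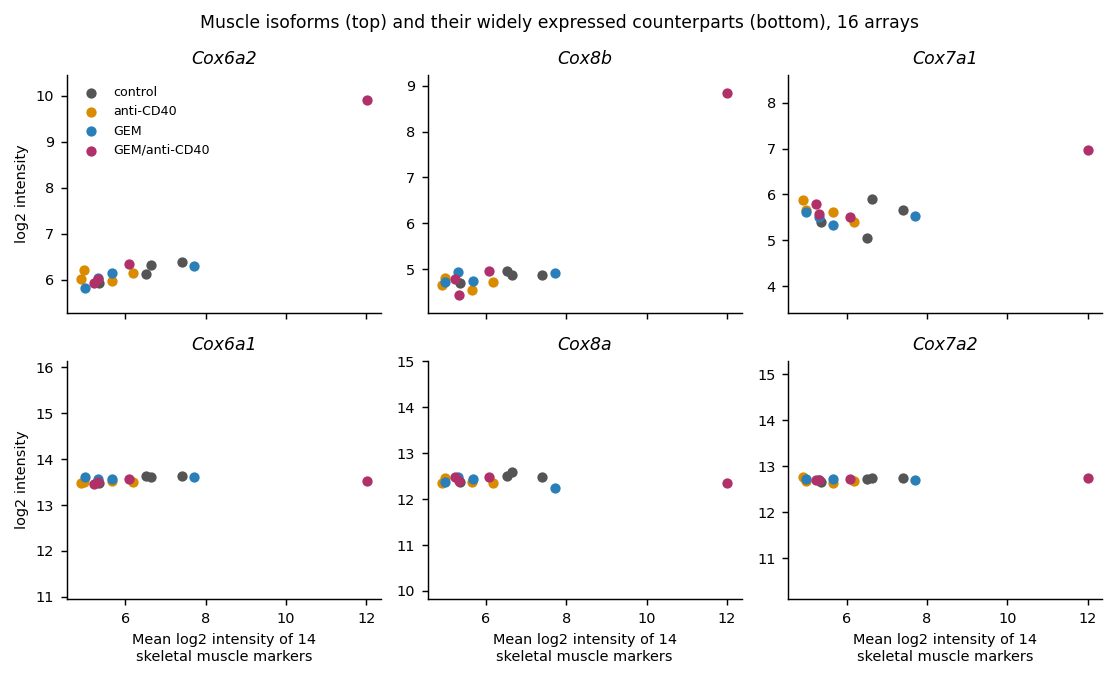
The log2 intensity (y axis) of 3 muscle isoforms (top) and their widely expressed counterparts (bottom) against the mean log2 intensity of 14 skeletal muscle markers (x axis), 1 point per tumor. GEM/anti-CD40 replicate 4, at a marker mean of 12.0, is apart in the top panels and lies with the others in the bottom panels.

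Genes around the pathway were read from lists of the same kind. In each of the 10 lists no gene passed the test in any comparison by limma, and the counts that follow are at an unadjusted p under 0.05, which 7.27% of all genes reached in anti-CD40 against control, 6.31% in GEM against control, 11.2% in GEM/anti-CD40 against control and 12.8% in GEM/anti-CD40 against GEM, in either direction. Of 76 mitochondrial ribosomal proteins, which translate the subunits encoded by mitochondrial DNA, 0 did so in anti-CD40 against control, and 2 higher and 0 lower in GEM/anti-CD40 against control. Of 15 carriers and cytochromes outside the rule 1 was higher in each of these comparisons, Coq10b, at 0.31 and 0.245. Of 8 further complex I assembly genes 4 were higher in GEM against control, among them Tmem126b at 0.25 and Tmem186 at 0.22, and their list had a median of 0.124. Of 13 assembly genes of complexes II, III and V, 2 were higher and 1 lower in GEM/anti-CD40 against control, and of 17 complex IV assembly genes 2 were higher and 1 lower, with the copper chaperone Sco1 at 0.32 (SE 0.063, adjusted p 0.338 by limma).

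Of 14 regulators of mitochondrial biogenesis, 2 were higher in anti-CD40 against control and 3 in GEM/anti-CD40 against control. Nrf1, the transcription factor whose motif is marked in the sequences, had log2 changes of 0.18 (SE 0.057) and 0.195 (SE 0.054) in these comparisons, with adjusted p of 0.807 and 0.429 by limma. Ppargc1b, a coactivator of mitochondrial genes, was at 0.345 (SE 0.118, adjusted p 0.465 by limma) in the second. Of 16 genes of the tricarboxylic acid cycle 2 were lower in GEM/anti-CD40 against control, and of 13 fatty acid oxidation genes 2 were lower and 1 higher, with Hadh at -0.2 (SE 0.065). Of 8 adenine nucleotide and phosphate carriers and porins 1 was higher. Of 13 glycolysis genes, which make ATP without oxygen, all 13 were above 0 in GEM/anti-CD40 against GEM and 8 were higher at an unadjusted p under 0.05, with a median of 0.2 against -0.018 over all genes. Hexokinase Hk2 was at 0.515 (SE 0.104) and the glucose transporter Slc2a1 at 0.57 (SE 0.116), each with an adjusted p of 0.197 by limma. The median of the 90 members in GEM/anti-CD40 against GEM was -0.016. In GEM against control, 12 of the 13 glycolysis genes lay below 0 with a median of -0.125, and 1 was lower at that threshold. In GEM/anti-CD40 against control their median was 0.11, with 3 higher and 1 lower. Against anti-CD40 it was 0.0425, with 0 higher or lower, where 3.6% of all genes reached that threshold.

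Markers of cell types differed between the groups alongside the members. In GEM/anti-CD40 against GEM, 7 of 10 macrophage markers, 5 of 8 T cell markers, 3 of 5 granulocyte markers and 6 of 7 endothelial markers were higher at an unadjusted p under 0.05, with median changes of 0.79, 0.49, 0.69 and 0.52, where 12.8% of all genes reached that threshold in either direction. In anti-CD40 against control, 8 of 14 skeletal muscle markers were lower at that threshold, with a median of -0.96, and 4 of 7 endothelial markers were higher. There 7.27% of all genes reached it in either direction. Of 9 fibroblast markers 7 were above 0 in that comparison, with a median of 0.465 and 0 at the threshold. The 9 tumor epithelium markers had medians of -0.0475 in GEM/anti-CD40 against GEM and -0.04 in anti-CD40 against control. In GEM against control 4 of 8 T cell markers were lower at that threshold, with a median of -0.21, where 6.31% of all genes reached it. Skin keratinocyte markers had a mean of 9.1 in control replicate 2 and 7.67 in anti-CD40 replicate 2, against 5.46 to 6.11 in the other 14 tumors. With those and GEM/anti-CD40 replicate 4 left out, 73 members were below 0 in anti-CD40 against control and the median was -0.057. The 3′ minus 5′ difference of the Actb controls, a sign of RNA quality, was 0.29 to 0.38 in all 16 arrays, and that of Gapdh -0.1 to 0.0. That of Tfrc ran from 1.07 to 2.01 and that of Pcx from 2.09 to 2.84. Control replicate 3, with Tfrc at 1.07, and GEM replicate 4, with Tfrc at 1.42 and Pcx at 2.09, had the highest medians over the members, 0.055 each. Control replicate 1, with Tfrc at 2.0 and Pcx at 2.84, had the lowest median of the controls, -0.048. Anti-CD40 replicate 3 had Tfrc at 1.89, Pcx at 2.35 and a member median below 0. The lowest member median of all 16 arrays, -0.055, was that of anti-CD40 replicate 4, with Tfrc at 1.93 and Pcx at 2.47. Control replicate 3 had Pcx at 2.47 as well. The part of these differences in the members' values was not tested. The part of cell composition in the members' values was not tested.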

How the data were processed

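RNA of 16 whole PDA30364 tumors, 4 per group, was measured on Affymetrix mouse genome arrays. Each deposited value is the log2 intensity of 1 probe set on 1 array, which the authors obtained by RMA (background correction, quantile normalization, probe summary). RMA gives all arrays the same distribution of probe values before the summary, so a change shared by most genes cannot be seen. The distributions of the summarized values still differed between arrays. Scaling arrays to their 75th percentile moved the median of all probe sets in GEM/anti-CD40 against control from -0.0225 to -0.0725. Of 45101 probe sets, 64 array controls were left out. Symbols came from the platform annotation, in which 34945 probe sets have 1 symbol, 932 several and 9160 none. The brightest probe set by mean over the 16 arrays represents a gene, and 51 members have several. No filter on low values was applied, and 85 members lie above the median probe set.

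Each pair of groups was fitted on its own 8 arrays and the interaction on all 16, with limma 3.58.1 in R 4.3.3, moderated variances, no covariate, two-sided tests and Benjamini-Hochberg adjustment over 45037 probe sets. Standard errors, p-values and 95% intervals are limma's. Medians, counts by direction and counts of groups that do not overlap are descriptions with no test. Members, lists and tests were chosen with earlier results of these data known. Genes are named by 1 rule, the 5 smallest p in each direction of each comparison, 10 core subunits, the tissue isoforms with their counterparts, and up to 3 genes per list, while the array-by-array extremes were chosen after their values were seen. Cox7b, a counterpart in that rule, was not analysed here. Samples were grouped by their labels. Replicates are separate tumors, except that the labels give GEM replicates 3 and 4 the same animal number, and the SD of their difference over probe sets, 0.26, lay among those of other pairs, 0.211 to 0.418, though they shared the most identical values of any pair, 2.68%, and they were kept as 2 samples. Replicate numbers do not pair the samples. The alternatives were 1 fit of all arrays, dim probe sets left out, a trended and robust prior, array weights, 75th percentile scaling, repeated quantile normalization, a gene's mean over its probe sets, representatives without shared probe sets, the replicate block, GEM replicates 3 and 4 averaged, and each array left out. A fit without the 3 arrays rich in muscle or skin genes was chosen after seeing the data. The code was tested on simulated data. Precision is limited by 4 arrays per group. Promoter letters came from RefSeq windows of GRCm38.p6.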

Additional observations from a re-analysis of the deposited data

Results flagged for a closer look

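In 204 groups of 4 arrays, covering 43 named genes and 8 medians over complexes or all members, 14 held an array set apart from the other 3 by a gap, as a share of the group's range, above Dixon's 95% critical value. Chance alone gives this in about 1 group in 20. Cox6a2 stood at 9.91 in GEM/anti-CD40 replicate 4 against 5.93 to 6.35 in the other 3 tumors of the group, and Cox8b at 8.83 against 4.45 to 4.96, in the tumor in which all 14 skeletal muscle markers were highest.

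The others spanned less than 0.6 on the log2 scale. In GEM/anti-CD40 tumors, Cox6b1 was at 12.4 in replicate 4 against 12.28 to 12.3, Cox5a at 12.53 in replicate 3 against 12.52, Ndufb11 at 12.13 in replicate 3 against 11.99 to 12.01, Uqcrq at 10.82 in replicate 3 against 10.95 to 10.97 and Cox7b2 at 2.92 in replicate 2 against 3.05 to 3.07. In GEM replicate 2, Ndufaf4 was at 8.96 against 9.44 to 9.53, Uqcr11 at 10.94 against 11.11 to 11.13 and Cox7b2 at 2.89 against 2.97 to 2.98. In anti-CD40 tumors, Ndufaf4 was at 9.18 in replicate 1 against 9.5 to 9.54, Cox6b1 at 12.2 in replicate 3 against 12.29 and Sdhb at 10.77 in replicate 4 against 10.67 to 10.68. Ndufa8 was at 10.86 in control replicate 3 against 10.79 to 10.8.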

How the results depend on the processing

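The count of members past an adjusted p of 0.05 was 0 under every alternative that was run, including each array left out, and limma gave between 0 and 12 members at an unadjusted p under 0.05. With the replicate block 0 members passed in every comparison, and 2, 1, 4, 2, 0 and 2 had an unadjusted p under 0.05 in the order of the comparisons above. Those were 2.22%, 1.11%, 4.44%, 2.22%, 0% and 2.22% of members. Of all probe sets 5.64%, 5.09%, 10.7%, 10.3%, 3.58% and 5.13% reached that threshold with the block. Same-numbered tumors did not deviate together, with correlations from -0.266 to 0.273, so no paired reading is made.

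The median change of all members in GEM/anti-CD40 against control was -0.091 instead of -0.041 when arrays were scaled to their 75th percentile, which moved the median of all probe sets to -0.072. With that scaling the members' median was -0.035 in GEM against control and 0.0 in GEM/anti-CD40 against anti-CD40. It also put the medians of complexes II and III in GEM/anti-CD40 against control at -0.0525 and -0.046. With a gene's mean over its probe sets, the complex III median of the interaction was 0.042 instead of 0.1125. With each array left out in turn the members' median lay between -0.074 and -0.0375 for anti-CD40 against control, -0.030 and 0.010 for GEM against control, -0.057 and -0.031 for GEM/anti-CD40 against control, -0.035 and -0.010 for GEM/anti-CD40 against GEM, 0.015 and 0.042 for GEM/anti-CD40 against anti-CD40, and 0.020 and 0.054 for the interaction. With GEM replicates 3 and 4 averaged, the median in GEM against control was -0.0171 instead of -0.0075. Of 3576 values of all named members under alternatives 168 had the other sign. Of the 1177 among them that belong to members named for the smallest p, 4 did, for Cox7a1, Uqcrq and Atp5pb. Those members were chosen by their p in these same data, which by itself makes a change of sign rare. The cause of the changes was not tested.

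Single arrays moved the counts at an unadjusted p under 0.05. The largest count was 13.3% of members against 7.04% of all probe sets in anti-CD40 against control, and 3.33% against 6.0% in GEM against control. For GEM/anti-CD40 it was 11.1% against 9.49% over control, 10.0% against 10.7% over GEM and 5.56% against 4.62% over anti-CD40. For the interaction it was 6.67% against 5.78%. In every other fit with 1 array left out the member share was below that of all probe sets. Anti-CD40 against control had 5 with all arrays, 12 without control replicate 1, 3 without control replicate 2 or anti-CD40 replicate 1, 2 without control replicate 3 and 1 without anti-CD40 replicate 3 or 4. GEM/anti-CD40 against control had 4, then 10 without control replicate 1, 2 without control replicate 3 or GEM/anti-CD40 replicate 4, and 1 without control replicate 2 or GEM/anti-CD40 replicate 1. GEM/anti-CD40 against GEM had 4, then 9 without GEM replicate 2, 2 without GEM replicate 3 and 1 without GEM/anti-CD40 replicate 1. GEM/anti-CD40 against anti-CD40 had 2, then 5 without GEM/anti-CD40 replicate 2, 4 without replicate 3 of that group, and 0 without its replicate 1 or 4 or without anti-CD40 replicate 3. GEM against control had 1, then 3 without control replicate 1 and 2 without control replicate 4 or GEM replicate 2 or 4. The interaction had 3, then 6 without control replicate 1 and 1 without replicate 3 of control, anti-CD40 or GEM or without GEM/anti-CD40 replicate 4.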
